A study of Mus musculus with 4 samples.

Results

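Transcripts of p53 target genes and of the apoptosis machinery were examined in mouse embryonic stem cells (ES cells) of the E14 line that carried an RNAi plasmid against Mtf2, which works with the Polycomb complex PRC2 as an accessory protein. The members were a list of 33 genes, found on the array by gene symbol. The platform table named 100 features for 31 of them, out of 45220 features on the array. Trp53, which encodes p53, and Bax, an effector of mitochondrial apoptosis, were not analysed here. Of the 100 features, 98 had a scaled intensity of at least 1 unit on some array and were tested, among 35102 features tested in all. Every one of the 31 genes kept at least 1 tested feature. The Mtf2 RNAi arm held cells with pSuper-Mtf2-RNAi-1 (hairpin 1) and cells with pSuper-Mtf2-RNAi-3 (hairpin 3). The control arm held cells with empty pSuper vector and cells with pSuper-Luci-RNAi, a hairpin against luciferase. All 4 cultures were transfected with lipofectamine, put into puromycin (1 mg/ml as the labels state it) 1 day after transfection and harvested after 2 days of selection, so every culture had passed through transfection and drug selection. Each plasmid has 1 array, the plasmids of an arm are its only replicates, and p-values reflect just the variation among these arrays, which may be technical. In bulk RNA, fewer cells of a type and less RNA per cell cannot be told apart.

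The transcription factor p53 is held low by Mdm2 and Mdm4, and it is released after DNA damage and other stress. It then switches on genes that stop the cell cycle, adjust metabolism and repair, or prime the cell for death. The death side runs along a receptor branch, through Fas-like receptors and caspase 8, and a mitochondrial branch, in which BH3-only proteins oppose the survival proteins of the Bcl2 family until cytochrome c escapes and Apaf1 activates caspase 9. ES cells are known for a low threshold to apoptosis.

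The values are intensities scaled so that every array shares a 75th percentile of 22.98 units, and 1 unit was the floor before log2 was taken. Differences are on the log2 scale, Mtf2 RNAi over control, with their standard error (SE) from limma, and a gene stands for its brightest feature unless stated. Markers of the labelled cell type were present. The 8 ES cell markers include Zfp42, Nanog and Pou5f1. They summed to 9365 and 8080 units in Mtf2 RNAi cells, against 10247 and 7421 units in control cells. None was at the floor, and Zfp42 and Dppa5a made up most of the sum. Of the 8, 5 read higher and 3 lower. Arms were separate for Nanog (higher, 12.5%, against 15.1% of all genes) and for Esrrb and Utf1 (lower, 25%, against 18.3%). The 4 neural markers summed to 147.4 and 160.4 units with Mtf2 RNAi, against 263.0 and 168.7 in control cells, mostly from Tubb3. Of these, 1 read higher and 3 lower. Tubb3 alone had separate arms (lower, 25%, against 18.3% of all genes), at -0.64, but -0.135 over the median of its features. The 4 endoderm markers summed to 34.6 to 42.6 units, with 3 higher and 1 lower. Gata4 alone had separate arms (lower, 25%, against 18.3%), at -1.27 and 4.92 units or below, but 0.19 over the median of its features. The 8 fibroblast or feeder markers summed to 696.2 and 608.9 units with Mtf2 RNAi, against 853.9 and 685.2 in control cells. The intermediate filament gene Vim, which ES cell cultures can also express, made up most of that sum, and Lum, Dcn and Col3a1 stood at 1.83 units or below on every array. Thy1 read 30.2 and 27.9 units with Mtf2 RNAi, against 36.9 and 41.4 in control cells, and Col1a1 and Col1a2 lay between 4.97 and 9.86 units. These 3 had separate arms, lower with Mtf2 RNAi (37.5% of the 8, against 18.3% of all genes). S100a4 had separate arms in the higher direction (12.5%, against 15.1%). In all, 7 of the 8 markers read lower (median -0.24), none past the test. Brightest features read -0.52 for Col1a1, -0.47 for Col1a2 and -0.43 for Thy1. Over the median of each gene's features these were 0.031, -0.17 and -0.093. The part of such cells in the results was not tested. Mtf2 itself read lower in both Mtf2 RNAi arrays than in both control arrays on 3 of its 4 features (differences of -1.08, -1.03 and -0.78). Its brightest feature read 0.19. None of the 4 passed limma's test (adjusted p of 0.868 for the lower 3 and 0.954 for the brightest). On that brightest feature hairpins 1 and 3 read 501.1 and 335.0 units, against 174.8 with the empty vector and 737.2 with luciferase RNAi. The controls thus lay on either side of both hairpins, 2.08 log2 apart. The empty-vector array correlated less with the other arrays (Pearson r across features of 0.945 to 0.949) than those did with each other (0.976 to 0.979). It also carried 1681 positions with defective neighbourhoods, nearly all low and in the last columns of the array, and 1 member feature, of Xiap, lay at such a position.

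No member passed the test. Of the 98 member features, 0 had an adjusted p under 0.05 (limma, Benjamini-Hochberg over all features), as did 0% of all 35102 features, whose smallest adjusted p was 0.868. An unadjusted limma p under 0.05 was found for 8 member features, 4 higher and 4 lower with Mtf2 RNAi (8.16%). The share of all features was 4.18%, 1.62% higher and 2.56% lower. The 4 higher ones belong to Mdm4, Ddit4l, Eda2r and Btg2, and the 4 lower ones to Trp53inp1, Tnfrsf10b, Perp and Bad. Only those of Eda2r, Btg2 and Perp are the brightest of their gene, and that of Bad is near the floor. Counted by gene, this is 3 of 31 (9.68%), against 4.18% of all genes. The distance from these shares was not tested. By brightest feature, 19 of the 31 genes read higher (61.3%, against 49.2% of all genes) and 12 lower, with a median difference of 0.047 log2, against a median of -0.008 over the 16764 named genes tested. Both arms were free of overlap for 5 genes that read higher (16.1%) and 3 that read lower (9.68%), against 15.1% and 18.3% of all genes. These shares rest on 5 and 3 genes, and their distance from the shares of all genes was not tested.

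**Figure D1:**
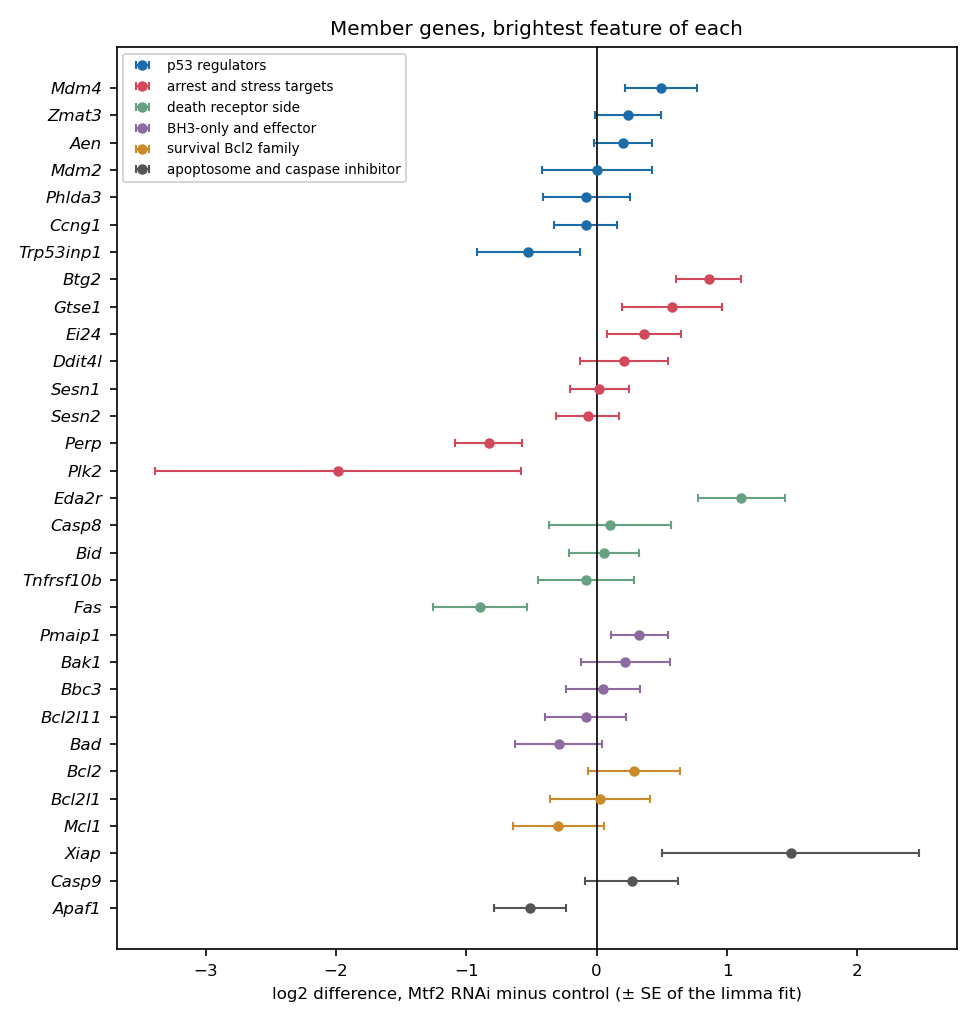
Difference between Mtf2 RNAi and control (x axis, log2 units) for the brightest feature of each of the 31 member genes, grouped by role. Points are limma estimates and bars are 1 SE. Most lie within 1 SE of 0, Eda2r (1.11) and Btg2 (0.86) lie well to the right, Fas (-0.89) and Perp (-0.83) well to the left, and Plk2 and Xiap have the widest bars.

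Promoters are shown for 5 p53 target genes that the results below describe, from 250 bases before to 50 after the start of the gene, to place the p53 half-site, the decamer that p53 subunits bind in pairs, next to the expression values. Capitals mark each match to the half-site consensus, which reads the same on both strands.
Mdm2, GRCm38.p6 chr10:117710709-117711008, minus strand: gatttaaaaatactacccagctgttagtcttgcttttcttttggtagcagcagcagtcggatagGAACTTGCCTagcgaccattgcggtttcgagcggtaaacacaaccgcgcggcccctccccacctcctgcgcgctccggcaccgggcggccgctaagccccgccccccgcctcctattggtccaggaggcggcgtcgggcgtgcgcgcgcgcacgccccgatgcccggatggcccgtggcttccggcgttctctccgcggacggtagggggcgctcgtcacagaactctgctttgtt
Ccng1, GRCm38.p6 chr11:40755237-40755536, minus strand: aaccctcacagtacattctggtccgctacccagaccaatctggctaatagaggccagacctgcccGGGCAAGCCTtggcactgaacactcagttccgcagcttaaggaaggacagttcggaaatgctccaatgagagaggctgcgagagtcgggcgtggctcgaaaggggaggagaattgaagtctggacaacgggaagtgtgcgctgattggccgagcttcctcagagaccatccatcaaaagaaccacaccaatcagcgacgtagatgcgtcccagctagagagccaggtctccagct
Ei24, GRCm38.p6 chr9:36797285-36797584, minus strand: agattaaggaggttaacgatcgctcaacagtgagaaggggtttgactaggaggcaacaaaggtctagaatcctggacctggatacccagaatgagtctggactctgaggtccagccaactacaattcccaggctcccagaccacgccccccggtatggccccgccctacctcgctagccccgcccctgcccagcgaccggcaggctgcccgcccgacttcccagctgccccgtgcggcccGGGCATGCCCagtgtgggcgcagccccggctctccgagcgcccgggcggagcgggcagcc
Ddit4l, GRCm38.p6 chr3:137623422-137623721, plus strand: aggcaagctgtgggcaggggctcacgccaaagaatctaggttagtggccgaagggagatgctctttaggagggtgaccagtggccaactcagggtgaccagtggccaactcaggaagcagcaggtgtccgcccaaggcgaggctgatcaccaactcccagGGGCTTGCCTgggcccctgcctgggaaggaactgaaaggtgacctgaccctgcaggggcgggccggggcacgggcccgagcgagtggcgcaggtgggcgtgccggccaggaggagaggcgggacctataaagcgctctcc
Btg2, GRCm38.p6 chr1:134079106-134079405, minus strand: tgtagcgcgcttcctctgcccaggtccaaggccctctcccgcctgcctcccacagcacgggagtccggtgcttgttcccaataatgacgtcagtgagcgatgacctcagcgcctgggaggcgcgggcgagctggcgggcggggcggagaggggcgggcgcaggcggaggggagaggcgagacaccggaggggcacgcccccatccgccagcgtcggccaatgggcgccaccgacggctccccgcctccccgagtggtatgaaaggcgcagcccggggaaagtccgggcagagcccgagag
The promoter table used here, made from RefSeq, matched 26 of the 31 genes (not Trp53inp1, Zmat3, Perp, Pmaip1 and Tnfrsf10b), and 7 of these had a half-site in at least 1 promoter, against 9.55% of the 27025 genes with a promoter in the table. The matches were in Mdm2, Ccng1, Ei24, Ddit4l, Aen, Gtse1 and Sesn1. All promoters shown but that of Btg2 hold a match, so they do not stand for the 26 genes, most of which have none. Fas, Bbc3, Phlda3, Sesn2, Plk2 and Eda2r are among those without a match. In Mdm2 the match begins 186 bases before the start, in Ccng1 185, in Ddit4l 90 and in Ei24 10 bases before it. Btg2 had none in this window. Only full matches to the consensus were marked, so a site with mismatches would not be seen. No member promoter held a pair of CATG tetramers 6 bases apart, against 0.712% of all promoters. These letters are matches of sequence and were not set against binding data.

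The negative regulators of p53 came first. Mdm2, the ubiquitin ligase that degrades p53 and is itself a p53 target, has 11 features. Its brightest feature read 330.3 and 172.0 units with hairpins 1 and 3, against 304.6 with the empty vector and 185.4 with luciferase RNAi, a difference of 0.004 (SE 0.42). One array of each arm was high and the other low, so the arms interleaved. The other 10 features were dimmer, with medians of 19.4 and 20.0 units in Mtf2 RNAi cells, against 15.6 and 17.3 in control cells. Of these 10, 9 read higher with Mtf2 RNAi and 5 had separate arms in that direction, as did 14.7% of all features. The difference of the medians was 0.26. Features of 1 gene on 1 array share the same RNA and are not replicates of a condition. Over all 11 features of Mdm2 the difference of the median was 0.26 (SE 0.24, limma), about 1 SE from 0.

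Mdm4, the relative of Mdm2 that blocks p53 without degrading it, read 128.8 and 86.7 units with hairpins 1 and 3, against 79.0 and 71.2 with the empty vector and the luciferase hairpin. Both Mtf2 RNAi arrays lay above both controls, at a difference of 0.49 (SE 0.28, 1.41-fold). A second feature of Mdm4 read 28.4 and 37.7 units against 15.9 and 10.6 in the same order, which is 1.34 higher (SE 0.34). Its remaining 3 features read -0.11, -0.16 and -0.76 and were at 11.8 units or below. The features of Mdm4 therefore disagreed in sign, and the difference of their median was -0.11 (SE 0.32).

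Ccng1, which encodes cyclin G1 and is a long-known p53 target, read 360.6 and 368.0 units in Mtf2 RNAi cells, against 435.3 and 342.1 units in control cells, a difference of -0.08 (SE 0.24). Its second feature read 0.14. Trp53inp1, a p53-induced nuclear protein linked to autophagy and cell death, read 923.3 and 687.2 units with Mtf2 RNAi, against 1573 with the empty vector and 833.4 with luciferase RNAi (-0.52, SE 0.40). On its dimmer feature the arms were separate, at 91.7 and 77.2 units with Mtf2 RNAi, against 168.4 and 118.6 in control cells (-0.75, SE 0.27). Both features of this gene thus pointed down, with the empty-vector array highest on each. Without that array the brightest feature read -0.065, and without the luciferase array -0.98, so the size rested on the empty-vector array.

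Zmat3, an RNA-binding zinc finger protein, read 185.8 and 255.5 units with Mtf2 RNAi, against 190.1 and 178.7 units in control cells (0.24, SE 0.25), and only the hairpin 3 array stood apart. The nuclease gene Aen read 230.0 and 269.7 units against 225.9 and 208.0 (0.20, SE 0.22), with the arms barely separate. Phlda3, which restrains Akt signalling, read 1274 and 782.0 units in Mtf2 RNAi cells, against 973.9 and 1142 units in control cells (-0.08, SE 0.33), with the hairpins on either side of the controls.

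Among the arrest and stress targets, 5 of 8 genes read higher and 3 lower. Btg2, an antiproliferative protein that recruits the deadenylation machinery to mRNAs, read 90.0 and 112.4 units with hairpins 1 and 3, against 50.0 and 61.4 units with the empty vector and the luciferase hairpin. Both Mtf2 RNAi arrays were above both controls, a difference of 0.86 (SE 0.25, 1.81-fold; limma adjusted p = 0.868). Its other features also read higher, by 0.24 at 22.9 to 28.3 units and by 0.017 at 8.55 to 10.1 units. Perp, a tetraspan membrane protein of cell death and of cell junctions, went the opposite way on its only feature. It read 94.8 and 74.4 units in Mtf2 RNAi cells, against 167.9 and 132.1 units in control cells (-0.83, SE 0.26, 0.564 of control; limma adjusted p = 0.868). Leaving out any 1 array kept Btg2 between 0.70 and 1.02 and Perp between -1.002 and -0.65.

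The kinase gene Plk2 had the largest difference of the 31 members measured, and it rested on 1 array. It read 154.0 units with hairpin 1 and 7.06 with hairpin 3, against 129.8 and 131.0 units in control cells. Hairpin 1 and both controls were close together, and hairpin 3 alone was far below them. The difference was -1.98 (SE 1.41), and without the hairpin 3 array it was 0.24. Plk2 has a single feature, in the first column of the array, and its position was not among the defective ones.

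Ddit4l, an inhibitor of mTOR signalling, had 3 features that did not move alike. The brightest read 79.1 and 85.1 units with Mtf2 RNAi, against 52.9 with the empty vector and 95.2 with luciferase RNAi (0.21, SE 0.34). The second read 91.5 and 133.7 units against 45.2 and 58.4, with separate arms and a difference of 1.11 (SE 0.29), and the third read -0.12. The mitotic protein Gtse1 read 95.4 and 191.9 units in Mtf2 RNAi cells, against 83.3 and 98.6 units in control cells (0.58, SE 0.38), and the hairpin 3 array alone was high: without it the difference was 0.074. Ei24, a protein of the endoplasmic reticulum, read 546.2 and 378.9 units against 385.5 and 323.0 (0.37, SE 0.28), with hairpin 3 just below the empty vector.

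The sestrins, which curb mTOR signalling under stress, were level on their brightest features. Sesn1 read 101.3 and 111.7 units with Mtf2 RNAi, against 114.9 and 95.7 units in control cells (0.020, SE 0.23). Sesn2 read 801.1 and 691.8 units against 764.7 and 794.9 (-0.067, SE 0.24). A dim feature of Sesn1 read 1.71 higher (SE 1.02), at 9.38 and 9.56 units with the hairpins, against 0.70 with the empty vector and 8.41 with luciferase RNAi.

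**Figure D2:**
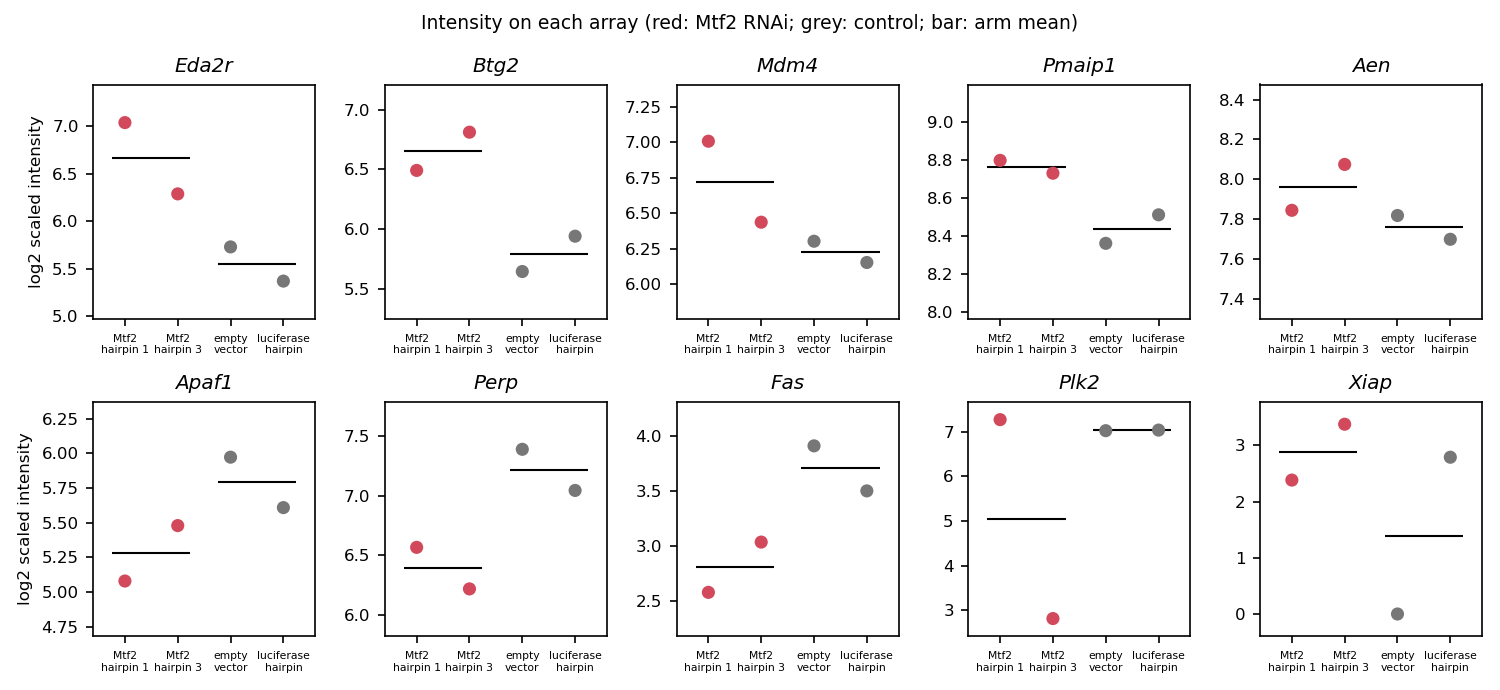
Scaled intensity (y axis, log2 units, a separate scale per gene) on each of the 4 arrays for the 8 genes whose arms did not overlap and for Plk2 and Xiap. Red points are Mtf2 RNAi arrays, grey points control arrays, and bars the arm means. For Plk2 the hairpin 3 array (7.06 units) and for Xiap the empty-vector array (at the floor) stand alone.

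On the death receptor side, Eda2r and Fas took opposite directions. Eda2r, the receptor for an ectodysplasin isoform and a p53 target, read 131.2 and 78.1 units with hairpins 1 and 3, against 53.1 and 41.4 units with the empty vector and the luciferase hairpin. The arms were separate, at a difference of 1.11 (SE 0.33, 2.16-fold; limma adjusted p = 0.868). Leaving out any 1 array gave 0.74 to 1.48. A second feature of Eda2r lay at 1.97 units or below on every array and read -0.26, and the difference of the median over both was 0.42.

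Fas, the receptor of Fas ligand, has 11 features, 10 of them with 1 transcript accession. The brightest read 5.97 and 8.19 units in Mtf2 RNAi cells, against 15.0 and 11.3 units in control cells (-0.89, SE 0.36; limma adjusted p = 0.868). Over the 10 repeated features the medians were 5.72 and 7.00 units with Mtf2 RNAi, against 9.04 and 8.63 units in control cells. Of the 10, 9 read lower and 8 had separate arms in that direction, as did 17.5% of all features. These repeats share the same RNA on each array and are not replicates. The difference of the medians was -0.48. The feature that read higher (by 1.24) did so with 1.30 units on the luciferase array against 6.73 to 7.26 on the others. Over all 11 features the difference of the median was -0.53 (SE 0.29, limma). Leaving out any 1 array gave -1.12 to -0.67 on the brightest feature.

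**Figure D3:**
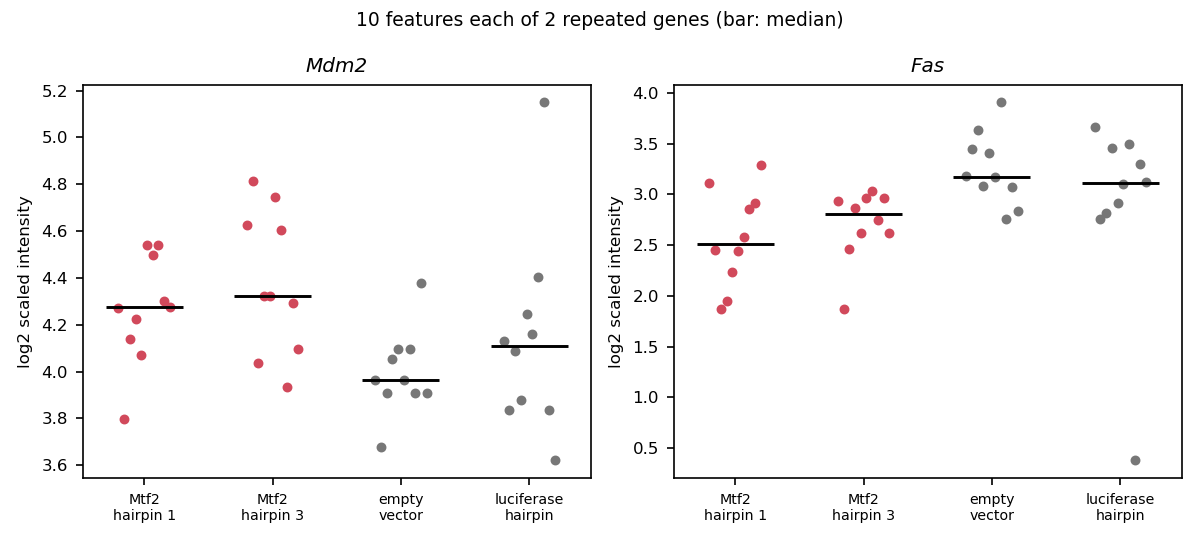
Scaled intensity (y axis, log2 units) of the 10 dimmer Mdm2 features and the 10 repeated Fas features on each array. Each point is a feature, bars are medians, red marks Mtf2 RNAi and grey control arrays. Mdm2 medians are 19.4 and 20.0 units against 15.6 and 17.3, and Fas medians 5.72 and 7.00 against 9.04 and 8.63.

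Tnfrsf10b, the mouse receptor of the death ligand TRAIL, read 8.57 and 12.0 units on its brightest feature with Mtf2 RNAi, against 12.8 and 9.02 units in control cells (-0.079, SE 0.37). A second feature had separate arms at 5.58 and 7.39 units against 11.7 and 14.3 (-1.01, SE 0.34), and the third read -0.50 near the floor. Casp8, the initiator caspase of this branch, read 9.57 units with hairpin 1 and 4.61 with hairpin 3, with the controls between them at 5.69 and 6.73 (0.10, SE 0.47). Bid, which carries the receptor signal to mitochondria, read 91.9 and 63.8 units in Mtf2 RNAi cells, against 73.3 and 74.0 units in control cells (0.057, SE 0.27). In Casp8 and Bid the hairpins thus stood on either side of both controls.

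The BH3-only genes and Bak1 differed little. Pmaip1, the p53 target known as Noxa, read 445.1 and 424.7 units with Mtf2 RNAi, against 328.7 and 364.8 units in control cells. Its arms were separate and each arm was tight, and the difference was 0.33 (SE 0.22, 1.26-fold). Bbc3, the p53 target known as Puma, read 310.4 and 309.1 units with both hairpins, between the empty vector at 243.0 and the luciferase hairpin at 369.7 (0.047, SE 0.28). Bcl2l11, known as Bim, read 39.9 and 25.3 units against 35.0 and 32.5 (-0.085, SE 0.31). A dim feature of it read 0.60, with 5.82 and 8.54 units in Mtf2 RNAi cells and 3.07 and 7.01 in control cells. Bad stood at 2.39 units or below on both features and every array, and read -0.29 (SE 0.33) and -0.91 (SE 0.27), sizes that the floor can set. The pore-forming protein gene Bak1 read 82.8 and 50.6 units with Mtf2 RNAi, against 65.8 and 47.1 units in control cells (0.22, SE 0.34), and 0.27 on its other feature.

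Of the survival genes, Mcl1 read 1482 and 905.1 units in Mtf2 RNAi cells, against 1266 and 1592 units in control cells (-0.29, SE 0.35), with the hairpin 3 array lowest. Its second feature was flat within each arm, at 793.5 and 832.8 units against 753.3 and 737.8 (0.12, SE 0.23). Bcl2 read 10.4 and 14.3 units with Mtf2 RNAi, against 11.6 and 8.62 in control cells (0.29, SE 0.35), and its 10 features of 1 accession had medians of 1.26 and 1.78 units against 1.66 and 1.43, close to the floor. Bcl2l1, which encodes Bcl-x, had 12 features with medians of 10.6 and 11.7 units in Mtf2 RNAi cells, against 10.1 and 8.55 units in control cells. Of these, 8 read higher and 4 lower, and 3 had separate arms, all in the higher direction, as did 14.7% of all features. The difference of the Bcl2l1 medians was 0.26 (SE 0.28, limma).

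Of the apoptosome genes, Apaf1, the scaffold that activates caspase 9, read 33.8 and 44.6 units with Mtf2 RNAi, against 62.8 and 48.8 units in control cells. The arms were separate, at -0.51 (SE 0.28, 0.701 of control). Its other features, at 6.56 units or below, read -0.045 and -0.16. Casp9 read 122.0 and 98.2 units in Mtf2 RNAi cells, against 66.9 with the empty vector and 123.3 with luciferase RNAi (0.27, SE 0.36), so the empty-vector array alone was low. Xiap, which binds and blocks caspases, read 5.22 and 10.4 units with Mtf2 RNAi, against 0.11 with the empty vector and 6.92 with luciferase RNAi. This is the feature at the defective position, where the neighbours on the empty-vector array had a median deviation of -2.60 log2. With such positions set to missing, the difference of 1.49 (SE 0.98) became 0.091. A second feature of Xiap read -0.39 and the third was under the floor on every array.

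**Figure D4:**
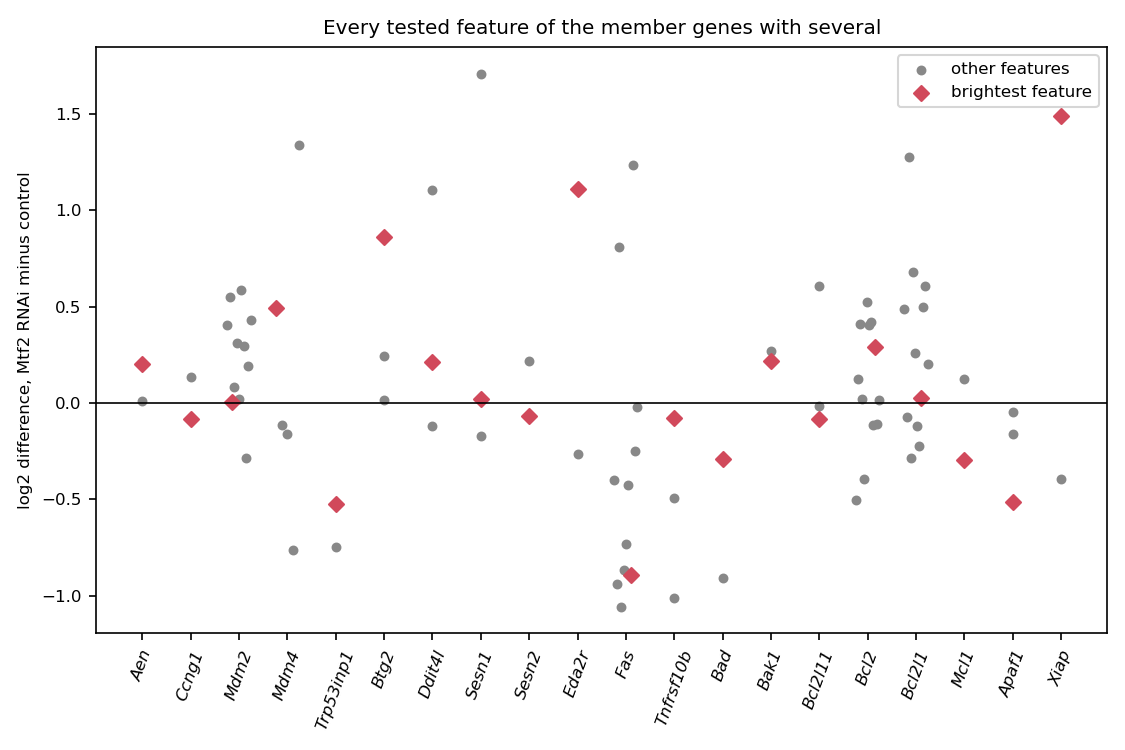
Difference between Mtf2 RNAi and control (y axis, log2 units) for every tested feature of the 20 member genes with more than 1. Red diamonds mark the brightest feature of a gene and grey points its others. Both features of Trp53inp1 and all 3 of Tnfrsf10b lie below 0, all 3 of Btg2 lie above it, and those of Mdm4, Ddit4l, Sesn1 and Xiap lie on both sides.

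Features of 1 gene often disagreed. In 10 genes (Mdm2, Mdm4, Fas, Sesn1, Eda2r, Ddit4l, Bcl2, Bcl2l1, Bcl2l11 and Xiap) the tested features lay on both sides of 0 with a spread of over 0.5 log2. With the median over a gene's features in place of the brightest, several genes moved by more than 1.5 times from the value above. Among them Sesn1 read 0.71, Ddit4l 0.68, Btg2 0.245, Tnfrsf10b -0.68 and Apaf1 -0.045. Eda2r read 0.42, Fas -0.53, Xiap 0.55, Bad -0.60, Mcl1 -0.084 and Aen 0.105, and some other genes changed sign. Among all 98 features, 19 with separate arms read higher (19.4%) and 14 read lower (14.3%), against 14.7% and 17.5% of all features. Of the 19, 5 belong to Mdm2 and 3 to Bcl2l1, and of the 14, 8 belong to Fas. Repeated features of a gene share the same RNA, so these shares do not count independent members.

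The gap between the plasmids of an arm sets the scale for these differences. For 25 of the 31 genes the difference between the arms was smaller than the larger of the gaps within an arm. The other 6 were Eda2r, Btg2, Pmaip1, Fas, Perp and Apaf1, which is 19.4% of the members, against 21% of all genes. Hairpin 3 and hairpin 1 lay at least 1 log2 unit apart for Plk2, Casp8 and Gtse1 (9.68%), against 7.60% of all genes, and the luciferase hairpin and the empty vector did so for Xiap (3.23%), against 9.65%. The absolute gap between the hairpins had a median of 0.49 log2 over the members and 0.32 over all genes, and that between the controls 0.33 and 0.34. These gaps compare single arrays and carry no test.

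**Figure D5:**
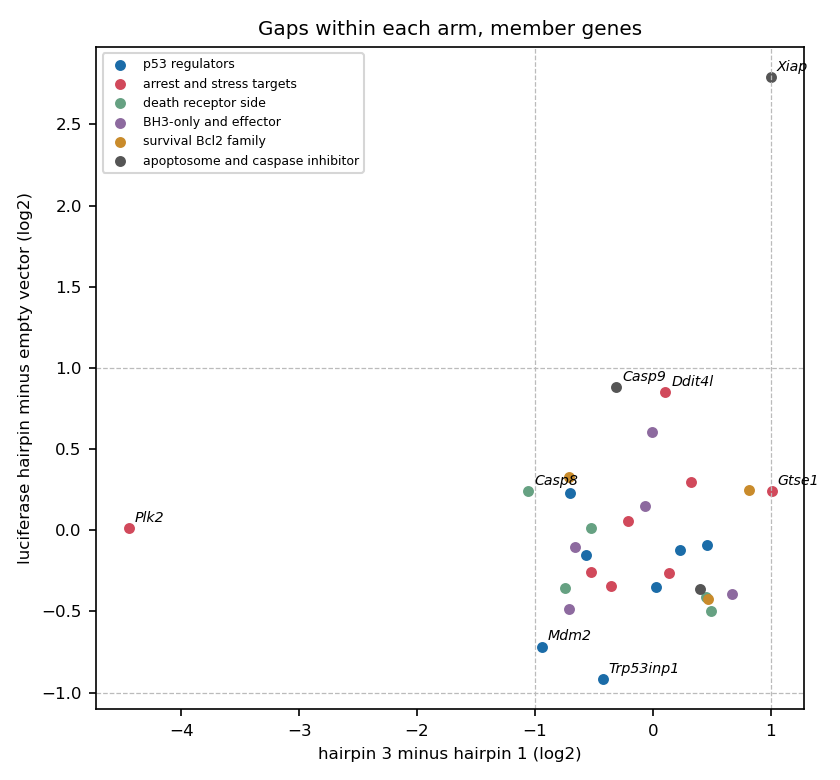
Gap between the Mtf2 hairpins (x axis, hairpin 3 minus hairpin 1, log2 units) and between the controls (y axis, luciferase hairpin minus empty vector, log2 units) for the brightest feature of each member gene. Dashed lines mark 1 log2 unit. Plk2 stands alone at the left (-4.45) and Xiap at the top (2.79).

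Further genes of these pathways were counted in the same way. Of 41 other p53 pathway genes measured, 21 read higher and 20 lower (median 0.025), and the arms were separate for 7 of the higher (17.1%) and 8 of the lower genes (19.5%), near the 15.1% and 18.3% of all genes. None passed limma's test over all features (0 of 41), and 1 had an unadjusted p under 0.05 (2.44%, against 4.18% of all genes). Pidd1, the scaffold of a caspase 2 activating complex, read 65.0 and 132.3 units in Mtf2 RNAi cells, against 49.0 and 44.3 units in control cells (0.99, SE 0.39), but -0.14 over the median of its 3 features. The DNA damage recognition gene Ddb2 read 47.2 and 32.2 units against 26.5 and 25.0 (0.60, SE 0.29), Trp53bp1 read 0.63 (SE 0.31) and Steap3 0.50 (SE 0.25) near the floor. Cdkn1a, the cell cycle inhibitor p21 and the classical p53 target, read 25.2 and 36.9 units with Mtf2 RNAi, against 44.0 and 28.5 units in control cells (-0.21, SE 0.35), and -0.49 over the median of its 10 features.

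Of 34 other apoptosis genes measured, 19 read higher and 15 lower, with a median of 0.028 and separate arms for 6 in each direction (17.6%, against 15.1% of all genes higher and 18.3% lower). Again 0 passed limma's test and 1 had an unadjusted p under 0.05 (2.94%). The executioner caspase gene Casp6 read 155.6 and 110.4 units in Mtf2 RNAi cells, against 68.4 and 66.6 units in control cells (0.96, SE 0.26; limma adjusted p = 0.868). Birc5, which encodes survivin, read 1909 units with each hairpin, against 1352 and 840.4 units in control cells (0.84, SE 0.33). The inflammatory caspase gene Casp1 was near the floor (-0.70, SE 0.29), and the receptor adaptor gene Tradd read 129.8 and 114.2 units against 199.9 and 140.4 (-0.46, SE 0.27).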

How the data were processed

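Per the labels' protocols, Cy3-labelled cRNA of 4 ES cell cultures was hybridised to 1-colour arrays. The deposited values are linear intensity per feature, and 2260 to 2879 features per array read 0 or below, as values do after a background is subtracted. Not given in the sources used here are the scanner, the background method and the normalization. Arrays were put on a shared 75th percentile (22.98 units), a floor of 1 unit was set, and values were converted to log2. The 10118 features under 1 unit on all arrays were left out. Features were named by the platform's annotation of 2016, and all 31 gene identifiers matched RefSeq (GRCm38.p6). Feature numbers were taken to run in rows of 85, and a position counted as defective if the other features of the surrounding block of 7 by 7 deviated by a median of over 0.5 log2 from the median of the 4 arrays. Mtf2 RNAi and control arrays were set against each other in limma 3.58.1 (lmFit, eBayes with an intensity trend, R 4.3.3), with Benjamini-Hochberg adjustment over 35102 features and a threshold of 0.05. On simulated data with means and spreads drawn from these arrays, the fit returned the mean effects put in but called no changed feature, so that a lack of calls at this number of arrays does not show a lack of change. The spreads were shuffled among features there, so any link of spread to intensity was lost and the setting differs from the data. An exact two-sided permutation test of 2 arrays against 2 cannot go below 0.333, so none was used. The members and lists were chosen with earlier results of these data known. The number of arrays limits the precision. Detection calls were not used. By the rule for named genes, values on every array are given for the members of each role with the largest differences, for Mdm2, for features at defective positions and for genes whose features disagree. The remaining members and single features are given to complete the account, and for each further list the 4 smallest p. Cdkn1a was added by choice. Alternatives covered scaling, floor, filter, defective positions, variance model, each array left out and the median over a gene's features.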

Additional observations from a re-analysis of the deposited data

How the results depend on the processing

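No member feature passed under any of the alternatives run. Over all features 0 passed as well, except 36 with no filter on dim features, all of which were also tested in the reported fit and none of them a member's. That setting adds features identical on all arrays, whose lack of spread enters the variance model. Whether this accounts for the 36 was not tested. The median over member genes was 0.047 as reported, 0.101 with the median over the features of a gene, 0.009 with quantile normalization (all genes -0.037), 0.047 to 0.068 under the remaining settings with all arrays, and 0.044 to 0.085 with 1 array left out. Of the 31 genes, 12 kept their direction under every alternative run. The filter and variance-model settings leave a gene's difference as it was, and leaving out 1 array cannot turn a gene with separate arms. The count therefore describes the same 4 arrays and adds no support. Of these 12, Fas, Perp, Pmaip1 and Btg2 stayed within 1.5 times their value with any 1 array left out. The other 8 did not, with ranges of -0.981 to -0.065 for Trp53inp1, 0.012 to 0.471 for Zmat3, 0.103 to 0.630 for Ei24, 0.074 to 1.082 for Gtse1, 0.085 to 0.315 for Aen, 0.736 to 1.484 for Eda2r, -0.713 to -0.313 for Apaf1 and 0.091 to 2.883 for Xiap. Quantile normalization turned Mdm2 (-0.046), Bbc3 (-0.034) and Bid (-0.019), and the median over features turned Mdm4 (-0.112), Ccng1 (0.027), Sesn2 (0.074), Bcl2 (-0.031) and Bcl2l11 (0.604). The cause was not tested. Leaving out 1 array turned others, with ranges of -0.466 to 0.475 for Mdm2, -0.257 to 0.090 for Ccng1, -0.255 to 0.350 for Bbc3, -0.432 to 0.273 for Phlda3, -0.112 to 0.153 for Sesn1, -0.173 to 0.039 for Sesn2, -0.329 to 0.171 for Tnfrsf10b, -4.207 to 0.240 for Plk2, -0.214 to 0.635 for Ddit4l, -0.379 to 0.434 for Bcl2l1, -0.413 to 0.243 for Bcl2l11, -0.650 to 0.062 for Mcl1, -0.206 to 0.320 for Bid, -0.136 to 0.574 for Bak1, -0.627 to 0.043 for Bad, -0.426 to 0.628 for Casp8 and -0.172 to 0.710 for Casp9. A lone array is there assumed to vary like the other arm. No paired analysis was possible because the labels give no replicate numbers that the arms share. Features near the floor limit what Bad, Bcl2 and the dim features of other genes can show.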
